A study of Mus musculus with 2 samples.

Results

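The Mir99/100 and Mir125 families are 6 of the 1973 microRNA genes counted in newborn mouse liver: Mir99a, Mir99b and Mir100, and Mir125a, Mir125b-1 and Mir125b-2. They were chosen by name through the GENCODE annotation and not by a cut on their levels, with earlier results of these data known. All 6 had an entry and at least 10 counts in each library. The series holds 1 microRNA-seq library from each of 2 B6NCrl pups of 1 litter at postnatal day 0, made from total RNA of the liver with inserts under 30 bases. Sex was not collected. There is 1 group and no treatment, mutation, second tissue or second age, so the comparisons are between genes and clusters within a liver and between the pups. Pup 2 (replicate 2) gave 4538427 gene-strand microRNA counts and pup 1 (replicate 1) gave 3422622. Levels are counts per 1000000 of these (CPM), given in each pup and as mean ± SD (n = 2 pups). Intervals are exact at 95%, cover counting error only and take each read as independent. PCR copies are not independent molecules, so the intervals can be too narrow.

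MicroRNAs are cut from hairpins in longer transcripts, and the bases next to their 5′ end, the seed, pair with target messenger RNAs. The Mir99/100 family is known for lowering mTOR and other genes of the insulin and growth signalling pathway, and the Mir125 family, the relative of worm lin-4, for lowering Lin28a and for its roles in blood cell formation. In vertebrates a Mir99/100 gene, a let-7 gene and a Mir125 gene lie side by side in that order in several copies of 1 ancestral cluster, and let-7 microRNAs are known to accumulate as tissues mature.

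The mature sequences of the 5′ (5p) arm of the hairpin, from RefSeq on build GRCm38.p6, show how the members differ and which of them a short read can tell apart. Capitals mark the seed, bases 2 to 8 from the 5′ end.
miR-99a-5p (Mir99a): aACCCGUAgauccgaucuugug
miR-100-5p (Mir100): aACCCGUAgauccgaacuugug
miR-99b-5p (Mir99b): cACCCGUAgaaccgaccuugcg
miR-125a-5p (Mir125a): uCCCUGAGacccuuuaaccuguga
miR-125b-5p (Mir125b-1 and Mir125b-2): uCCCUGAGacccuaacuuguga
miR-351-5p (Mir351): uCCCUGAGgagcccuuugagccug
miR-10a-5p (Mir10a): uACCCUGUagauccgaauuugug

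The 6 genes carried 5 distinct 5p sequences with 2 seeds, 1 for each family. Counted from the 5′ end, miR-100-5p differed from miR-99a-5p by the single substitution U16A. Relative to miR-99a-5p, miR-99b-5p carried A1C, U11A, U16C and U21C, all outside the seed. The 5p products of Mir125a and Mir125b shared their first 13 bases. The 5p product of Mir351, a rodent gene on the X chromosome, shared the first 8 bases with both of them. The miR-10a-5p line is shown because an 11-base run beginning at its base 7 matched the run beginning at base 6 of miR-100-5p, although the seeds differ.

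Of the 12 mature products of the 6 members, 10 were found at no other of the 1005 RefSeq microRNA hairpins searched. The other 2 are the same miR-125b-5p sequence, encoded on chromosome 9 and on chromosome 16. Reads that mapped to several loci were on no gene, so Mir125b-1 and Mir125b-2 were undercounted by an unknown amount. Such reads numbered 2044197 in pup 2 and 1520712 in pup 1, equal to 45.0% and 44.4% of the gene-strand counts, over all repeated sequences together. The opposite (3p) arms of both Mir125b hairpins, shown with seeds in capitals, can be told apart, with G3A, G4A, U7C, C11U and G20C in the second relative to the first.
miR-125b-1-3p: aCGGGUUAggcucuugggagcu
miR-125b-2-3p: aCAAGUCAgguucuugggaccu

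The hairpins of the highest and the lowest member show where these products lie, with the 5p and then the 3p product in capitals. Each count covers a whole hairpin, so reads of the 2 arms were summed.
Mir99a hairpin (GRCm38.p6, plus strand, chr16:77598936-77599000): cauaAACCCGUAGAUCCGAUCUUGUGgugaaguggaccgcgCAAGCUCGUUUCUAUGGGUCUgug
Mir125b-1 hairpin (GRCm38.p6, plus strand, chr9:41581926-41582002): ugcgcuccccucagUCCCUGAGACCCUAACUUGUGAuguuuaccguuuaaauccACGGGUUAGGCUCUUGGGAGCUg

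The 3 clusters keep the same gene order on the plus strand of mm10, and differ in spacing. On chromosome 16, Mir99a is followed by Mirlet7c-1 after a gap of 656 bases and by Mir125b-2 at 77646273 to 77646343, after a further 46522 bases. On chromosome 17, Mir99b (17830188 to 17830257), Mirlet7e and Mir125a (17830812 to 17830879) lie within 692 bases. On chromosome 9, Mir100 (41531425 to 41531504), Mirlet7a-2 and Mir125b-1 span 50578 bases. The chromosome 17 cluster was thus the compact one. On chromosome 9, as on chromosome 16, the Mir125 gene was the distant one, 45114 bases past its let-7 gene.

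In GENCODE M21 the hairpins of the chromosome 16 and chromosome 9 clusters lay in introns of long non-coding transcripts of the same strand. Mir99a and Mir125b-2 were intronic in all 4 overlapping transcripts of Mir99ahg, and Mir125b-2 also touched an exon of C130023A14Rik. Mir100 was intronic in 13 of 13 and Mir125b-1 in 24 of 24 overlapping transcripts of 3110039I08Rik, a name RefSeq lists for Mir100hg. Mir125b-1 also lay in the exon of the sense-intronic entry Gm28119. On the opposite strand, Mir99a lay in an intron of Gm11146 and Mir100 overlapped an exon of Gm48742. Mir99b was intronic in 2 of 2 transcripts of Spaca6, a protein-coding gene needed for sperm-egg fusion. Mir125a touched an exon of 1 of the 3 Spaca6 transcripts at its place and was intronic in the other 2. Opposite-strand counts were 0 for all 6 members in both pups, so counting without regard to strand left their counts as they were.

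**Figure D1:**
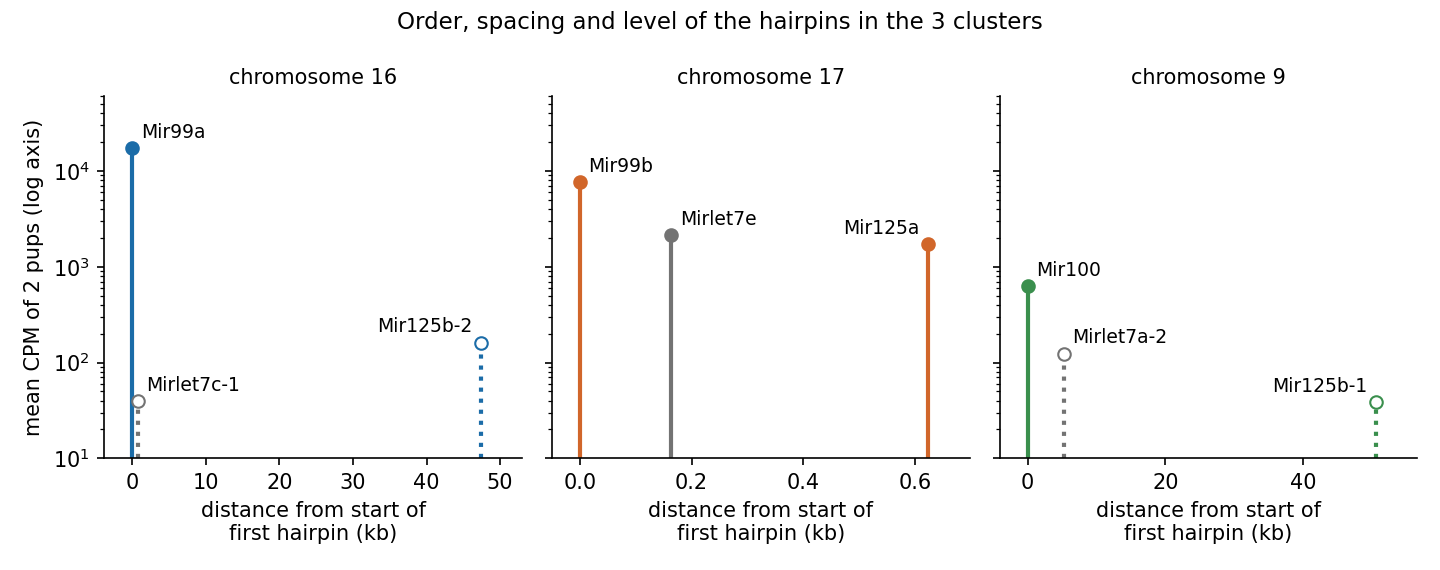
Mean CPM over 2 pups (log axis from 10 CPM, as vertical lines) against distance in kb from the start of the first hairpin, in the clusters on chromosomes 16, 17 and 9. Solid points are genes whose 5p product is at no other microRNA locus searched. Hollow points on dotted lines are genes whose 5p product other loci also encode, so that reads are missing from them. In these counts the Mir99/100 gene stood first and highest in each cluster, at 17268 CPM (Mir99a), 7595 CPM (Mir99b) and 625 CPM (Mir100).

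Together the 6 members took 125107 of the gene-strand counts in pup 2 and 93211 in pup 1, which is 2.76% and 2.72% of the library. The mean was 2.74% ± 0.0235. For scale, Mir122, the liver-enriched microRNA that leads both libraries, had 348624 ± 8931 CPM, 20.2 ± 0.273 times the level of Mir99a. The Mir99/100 family held 93.0% ± 0.259 of the members' counts and the Mir125 family 6.98% ± 0.259. These shares are of uniquely mapped reads, and the Mir125 share lacks the reads of the miR-125b-5p sequence shared by both Mir125b genes.

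Mir99a (ENSMUSG00000065530.1) was the highest member, with 79039 counts or 17416 CPM in pup 2 and 58596 counts or 17120 CPM in pup 1. The mean of 17268 ± 209 CPM made it rank 10 of all genes in the table. It alone held 63.0% ± 0.222 of the members' counts. Mir99b (ENSMUSG00000065396.1), of the same family, had 7606 CPM in pup 2 and 7584 CPM in pup 1. Its mean was 7595 ± 15.8 CPM, at rank 25 in both pups. Mir100 (ENSMUSG00000093011.1), 1 base apart from Mir99a in its 5p product, had 671 CPM in pup 2 and 579 CPM in pup 1. Its mean of 625 ± 64.9 CPM put it at rank 94. Within the family the Mir99a count was 2.27 ± 0.0228 times that of Mir99b and 27.8 ± 2.55 times that of Mir100.

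In the Mir125 family the order of the chromosomes was different. Mir125a (ENSMUSG00000065479.1) led with 1663 CPM in pup 2 and 1761 CPM in pup 1, a mean of 1712 ± 68.8 CPM at rank 63. Mir125b-2 (ENSMUSG00000065472.1) had 745 counts or 164 CPM in pup 2 and 544 counts or 159 CPM in pup 1, a mean of 162 ± 3.68 CPM. Mir125b-1 (ENSMUSG00000093354.1) was the lowest member, with 210 counts or 46.3 CPM in pup 2 and 107 counts or 31.3 CPM in pup 1. Its mean was 38.8 ± 10.6 CPM, at rank 212. Mir125a thus stood 10.6 ± 0.668 times above Mir125b-2 in these counts, while reads of the shared miR-125b-5p sequence are missing from both Mir125b genes. How the missing reads divide between the loci was not tested, so these ratios compare the uniquely mapped reads and not the mature products.

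In uniquely mapped reads all 6 members kept the same order in both pups: Mir99a, Mir99b, Mir125a, Mir100, Mir125b-2 and Mir125b-1. The gap between each pair of neighbours in this order exceeded the sum of their SDs, by 43.1 times for Mir99a and Mir99b and by 6.75 times for Mir100 and Mir125b-2, the smallest of the 5 gaps on this measure. The counting intervals of neighbours did not overlap either, as for Mir125b-2 (153 to 176 CPM) and Mir125b-1 (40.2 to 53.0 CPM) in pup 2. Neither the SDs nor the intervals cover the reads missing from both Mir125b genes, so the places of these genes are not those of their mature products. The smallest two-sided p that an exact sign-flip permutation over 2 pups allows is 0.5, so no test was made of the order.

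**Figure D2:**
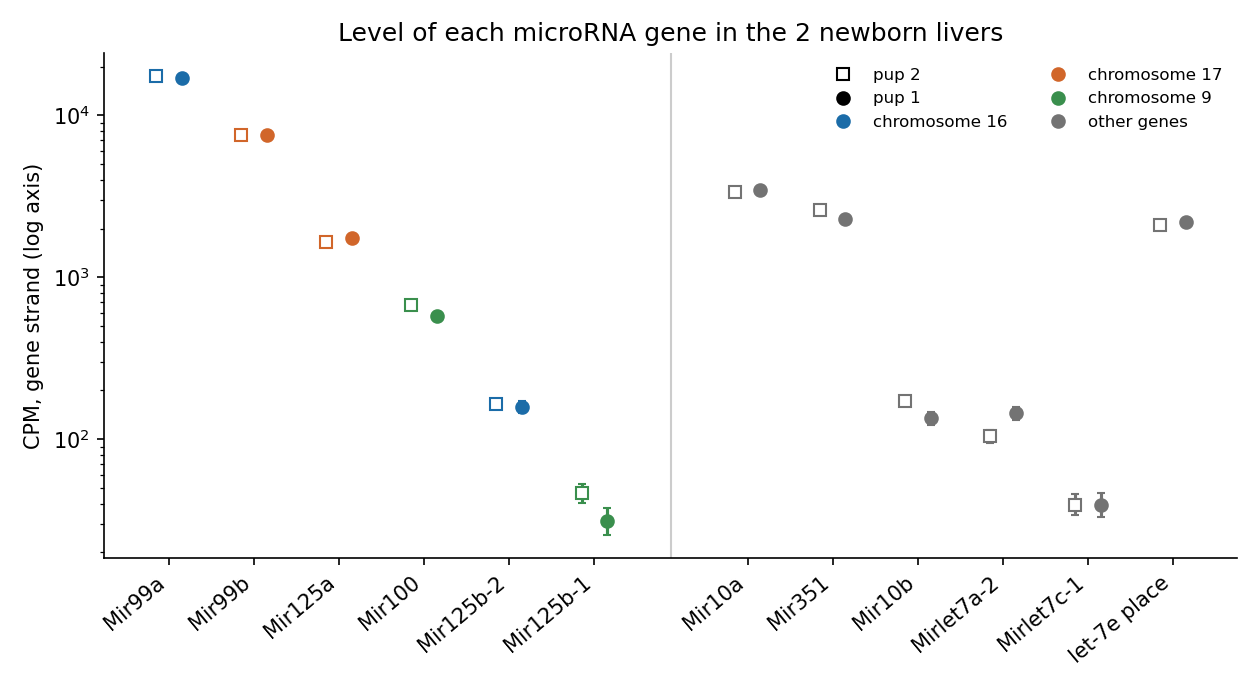
Gene-strand CPM (log axis) of the 6 members in order of level, left of the line, and of genes of related sequence or of the same clusters, right of it. Hollow squares are pup 2, filled circles pup 1, bars are exact 95% counting intervals and colours mark the cluster; the members run from 17416 and 17120 CPM for Mir99a to 46.3 and 31.3 CPM for Mir125b-1, and only the lower ones have intervals wide enough to see.

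The clusters were unequal. The chromosome 16 pair held 1.76% of the counts in pup 2 and 1.73% in pup 1, the chromosome 17 pair 0.927% and 0.934%, and the chromosome 9 pair 0.0717% and 0.0610%. Of the members' counts, chromosome 16 thus had 63.6% ± 0.230, chromosome 17 had 34.0% ± 0.485 and chromosome 9 had 2.42% ± 0.255. The chromosome 16 and chromosome 9 pairs each hold an undercounted Mir125b gene. The chromosome 16 to chromosome 17 ratio was 1.90 (1.87 to 1.92) in pup 2 and 1.85 (1.82 to 1.87) in pup 1, a mean of 1.87 ± 0.0335. Against chromosome 9, the chromosome 16 cluster stood 24.5 (23.7 to 25.4) times higher in pup 2 and 28.3 (27.1 to 29.6) times higher in pup 1, and the chromosome 17 cluster 12.9 times higher in pup 2 and 15.3 times in pup 1. In these counts the order of the clusters was the same in both pups. The intervals of the last 2 ratios did not overlap between the pups, since the chromosome 9 members were higher in pup 2.

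In uniquely mapped reads the Mir99/100 gene of each cluster exceeded the Mir125 gene, by unequal factors. On chromosome 17, both members have a 5p product found at no other microRNA locus searched. There the Mir99b count was 4.57 (4.46 to 4.69) times that of Mir125a in pup 2 and 4.31 (4.19 to 4.43) times in pup 1. This ratio of 4.44 ± 0.188 is the one within a cluster where neither gene shares its 5p product with another microRNA locus searched. On chromosome 16, Mir99a was 106 (98.7 to 114) times Mir125b-2 in pup 2 and 108 (99.0 to 117) times in pup 1. On chromosome 9, Mir100 was 14.5 (12.6 to 16.8) times Mir125b-1 in pup 2 and 18.5 (15.2 to 22.7) times in pup 1. In both of these the gene divided by is undercounted, and the ratios would be lower with its missing reads. The number of missing reads is unknown, so which mature product was the higher on chromosomes 16 and 9 was not settled. The levels are of mature reads, which differ between sequences in how well they are ligated and captured, and this was not corrected, so none of them is a ratio of transcripts.

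**Figure D3:**
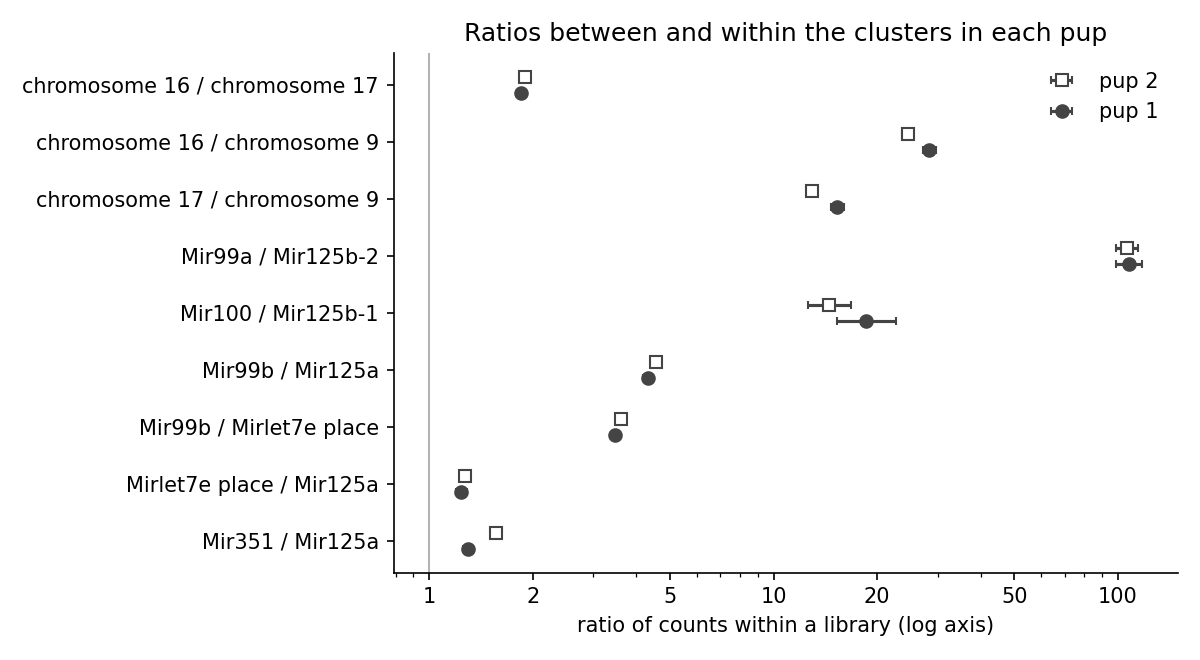
Ratio of counts within a library (log axis) between the clusters, between members of a cluster, and against the Mirlet7e place and Mir351. Hollow squares are pup 2, filled circles pup 1, bars are exact 95% counting intervals and the vertical line marks a ratio of 1. Each ratio shown was written with the higher count on top, so all lie above 1. The pups' intervals stand apart for chromosome 16 over chromosome 9 (24.5 and 28.3), for example. The ratios run from 1.27 and 1.24 for the Mirlet7e place over Mir125a to 106 and 108 for Mir99a over Mir125b-2.

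The let-7 gene between the members was read differently in each cluster. Mirlet7e, on chromosome 17, had no entry of its own, but the entry Gm25927 (17830343 to 17830459, minus strand) covers it, with 0 counts on its own strand in both pups. Plus-strand reads over it, the strand of Mirlet7e, numbered 9592 or 2114 CPM in pup 2 and 7480 or 2185 CPM in pup 1. The 3 products of this cluster therefore followed in the order Mir99b, Mirlet7e place and Mir125a, with Mir99b at 3.53 ± 0.0910 times the Mirlet7e place and that place at 1.26 ± 0.0207 times Mir125a. The let-7e-5p sequence was at no other microRNA locus searched. Reading the place in this way was chosen after its values were seen.

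On chromosome 16, Mirlet7c-1 had 39.4 CPM in pup 2 and 39.2 CPM in pup 1, and Mir99a stood 439 ± 3.02 times above it. The let-7c-5p sequence is also at Mirlet7c-2, so that this entry is undercounted in the same way as Mir125b-2. On chromosome 9, Mirlet7a-2 had 104 CPM in pup 2 and 144 CPM in pup 1. Mir100 stood 6.45 (5.85 to 7.12) times above it in pup 2 and 4.02 (3.64 to 4.45) times in pup 1, with no overlap of the intervals. The let-7a product is known to be made from other genes as well, so this entry is undercounted too, and its values are of uniquely mapped reads.

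Among genes that carry a member's seed, Mir351 had 2598 CPM in pup 2 and 2280 CPM in pup 1. Its count was 1.43 ± 0.189 times that of Mir125a, and it was higher than Mir125a in both pups. Most uniquely mapped reads at genes with the Mir125 seed were thus at Mir351 and Mir125a. Adding Mir351 to the family lowered the ratio of the Mir99/100 to the Mir125 family to 5.86 ± 0.163, against 13.3 ± 0.531 without it. Both ratios would be lower with the missing reads of the Mir125b genes. Mir6367 and Mir6394, which share that seed, had 0 counts in both pups. A limit of 3 counts is set for a count of 0, which is 0.661 CPM in pup 2 and 0.877 CPM in pup 1, and the upper ends of the two-sided exact intervals are 0.813 and 1.08 CPM. No gene of the table outside the family had a RefSeq mature product with the Mir99/100 seed. Of the Mir10 genes, whose 5p products share a run of bases with those of Mir99/100 but not the seed, Mir10a had 3422 ± 79.4 CPM and Mir10b 153 ± 26.4 CPM. Mir99a was 5.05 ± 0.178 times and Mir99b 2.22 ± 0.0561 times the level of Mir10a.

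Each member was set beside the genes nearest to it in mean level. A let-7 gene was next to Mir99a, Mir125a and Mir125b-1, and a gene of chromosome 12 next to Mir99b, Mir100 and Mir125b-2. Whether the neighbours share a kind was not tested. Mir99a stood between Mir101b (18016 ± 1325 CPM) and Mirlet7i (15528 ± 1492 CPM). Mir101b was higher than Mir99a in pup 1 and lower in pup 2, so their order was not resolved. Mir99b lay between Mir223, a microRNA of myeloid cells, at 8207 ± 510 CPM and Mir487b at 6934 ± 62.8 CPM. Mir125a lay between Mirlet7f-2 (1822 ± 83.7 CPM) and Mir200b (1634 ± 6.16 CPM), and differed from the first by less than the sum of the SDs and from the second by barely more. Mir100 (625 ± 64.9 CPM) was within its SD of both Mir494 (638 ± 47.6 CPM) and Mir187 (625 ± 3.94 CPM). Mir125b-2 was within 1 sum of SDs of Mir673 (161 ± 16.7 CPM) and below Mir32 (172 ± 3.63 CPM). Mir125b-1 could not be told from Mirlet7c-1 (39.3 ± 0.205 CPM) or Mir103-2 (38.2 ± 3.84 CPM). Reads shared with other loci are missing from both Mir125b genes and Mirlet7c-1, so their nearness in level is of uniquely mapped reads only. With 2 libraries of 1 group, likeness of pattern across samples was not measured.

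The pups were compared gene by gene with a two-sided exact binomial test, Benjamini-Hochberg adjusted over the 390 genes with at least 10 counts in all. This test knows counting error only and compares these 2 libraries. It called 4 of the 6 members, 3 of them higher in pup 2, against 30.3% of all genes tested in either direction and 15.9% in the higher one. Every member had at least 100 counts in each library, and among the 221 genes as deep as that 108 were called. Mir125b-1 had the largest log2 ratio of pup 2 over pup 1 among the members, 0.57 (0.22 to 0.92), with an adjusted p of 0.00421 in the exact test. Mir100, of the same cluster, had a log2 ratio of 0.21 (0.13 to 0.29) and an adjusted p of 2.14e-06. Both members of the chromosome 9 cluster were thus higher in pup 2. In its uniquely mapped reads, Mirlet7a-2 between them was lower in pup 2, at a log2 ratio of -0.47 (-0.66 to -0.28).

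Mir99a passed at a log2 ratio of 0.02 (0.01 to 0.04), exact adjusted p of 0.00710, a difference of 1.02-fold. With size factors of DESeq2 in place of total counts the same exact test did not call it, at an adjusted p of 0.0979. Mir125a was lower in pup 2, at a log2 ratio of -0.08 (-0.13 to -0.03) with an exact adjusted p of 0.00432. Mir99b, at 0.00 (-0.02 to 0.03), and Mir125b-2, at 0.05 (-0.11 to 0.21), were not called. The median absolute log2 ratio of the 221 deep genes was 0.12, and 4 of the 6 members differed by less. Of these genes, 4 had a larger absolute ratio than Mir125b-1. The median log2 ratio was 0.04 over the members and 0.00 over all genes tested.

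When spread between the libraries beyond counting error was allowed for, no member was called. That spread was estimated from the same 2 libraries taken as 1 group, so the differences under test are part of it. The absence of calls therefore does not show that the pups were alike. At a common coefficient of variation of 0.130, edgeR's negative binomial exact test called 0 of the 6 members and had 0 of them at an unadjusted p under 0.05. Of all 390 genes it called 0.513%, and 12 were at an unadjusted p under 0.05. Its lowest member p was 0.0790, for Mir125b-1. The 4 calls of the binomial test are therefore differences between 2 libraries at their depth, and 2 pups do not show how far such levels vary between litter mates.

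**Figure D4:**
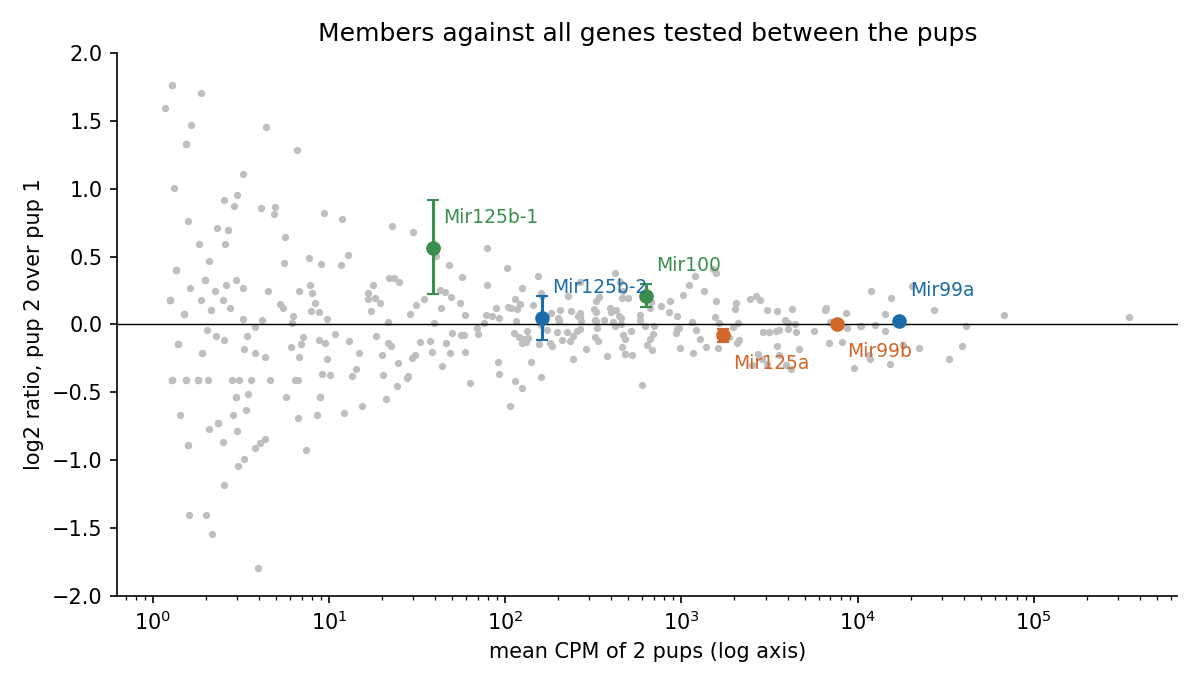
Log2 ratio of CPM, pup 2 over pup 1, against mean CPM (log axis) for the 390 genes tested, in grey, with the 6 members in the colours of their clusters (16 blue, 17 orange, 9 green) and exact 95% counting intervals. The members lie between -0.08 for Mir125a and 0.57 for Mir125b-1, among the grey points of genes of like level; 6 genes lie beyond the axis limits of 2 in either direction.

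The label of the tissue was checked with marker microRNAs. The 4 hepatocyte markers held 36.9% of counts in pup 2 and 35.8% in pup 1, and all were detected. Mir122 alone gave 1610867 of their 1676637 counts in pup 2 and 1171596 of 1224526 in pup 1. Mir126a, of endothelial cells, held 6.92% and 6.60%, the 5 mesenchymal markers 1.58% and 1.499% (4 detected), the leukocyte markers 0.801% and 0.872% and the erythroid markers 0.510% and 0.525%. The neural markers had 0 counts in pup 2 and 1 in pup 1, with 4 of 5 at 0 in both. Skeletal muscle markers held 0.101% in pup 2 and 0.0136% in pup 1, with 1 of 4 detected and 2 at 0, and Mir206 gave 4555 of the 4575 counts in pup 2 and 466 of the 467 in pup 1. This muscle signal and the chromosome 9 members were both higher in pup 2, and its part in their difference was not tested. The neural markers listed, and part of the muscle ones, are numbered copies of a gene. Reads that such copies share were on no gene, so counts near 0 there do not show that RNA of these tissues was absent. The liver holds hepatocytes, endothelial, stellate and blood-forming cells at this age, and in whole tissue fewer cells of a type and less RNA per cell cannot be told apart, for any of the levels above.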

How the data were processed

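MicroRNA-seq counts of 2 newborn livers were used. The authors deposited 1 table of raw counts for each library, with reads per microRNA gene on mm10 and GENCODE M4, according to the accompanying text. The aligner, counter and trimming were not given in the sources used here. The 3 count columns have no header. Their meaning (both strands, gene strand, opposite strand) was read from their totals, and the gene strand was used. Reads not on the gene strand of a microRNA gene, those on the opposite strand included, were 9.92% of uniquely mapped reads in pup 2 and 8.87% in pup 1 and stayed out of library sizes. Of 1973 entries, 1894 had a symbol in GENCODE M21 on the same assembly, and the other 79 held 0 counts.

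CPM, shares and ratios were computed with Clopper-Pearson or Poisson intervals (Python 3.11.15, scipy 1.17.1). Genes with at least 10 counts in all were compared between the pups with an exact binomial test, Benjamini-Hochberg at 0.05. With 1 group, a quasi-likelihood test has no contrast. Alternatives were the negative binomial exact test and TMM of edgeR 4.0.16, size factors of DESeq2 1.42.0, other library sizes and filters, counts without strand, the let-7 genes added, Mir125b left out, Mir351 added and each pup alone. The exact binomial comparison was also run on simulated counts that carried counting error only, which does not test it under the wider spread between these libraries. Sequences came from RefSeq (6 of 6 members matched).

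Named genes were the members, the let-7 genes of the clusters, genes with a member's 5p seed, Mir10a, Mir10b, Mir122 and the gene next above and below each member in mean CPM. Mir206 and Gm25927 were named after their values were seen. Members, lists and markers were chosen with earlier results of these data known.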

Additional observations from a re-analysis of the deposited data

Results flagged for a closer look

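Reads at the Mirlet7e place were flagged as signal outside the gene-strand counts. Mirlet7e has no entry, and the plus-strand reads over the minus-strand entry Gm25927 amounted to 2149 ± 50.9 CPM (n = 2 pups). The limit set for a count of 0, 3 counts of the library, was 0.661 CPM in pup 2 and 0.877 CPM in pup 1. Groups of 2 samples are too small for a check of outlying samples.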

How the results depend on the processing

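The log2 ratio of Mir99b between the pups, not called in either setting, turned sign with size factors of DESeq2 (-0.0037), and no other result run did. Of 58 alternatives for shares, ratios and the count of members called, 29 could not move by construction: each pup alone lies within 1 SD of a mean of 2, and ratios without strand are identical where opposite-strand counts are 0. Of the other 29, 16 moved by more than the spread of the pups, 12 stayed within it or, for counts of members, within 1.5 times, and 1 lost its calls. The share of the 6 members was 2.61% without regard to strand, 2.48% over all uniquely mapped reads and 4.21% without Mir122 in the library size. In the same 3 settings the chromosome 16 share was 1.66%, 1.58% and 2.68%, and the chromosome 17 share 0.888%, 0.843% and 1.43%. The chromosome 9 share was 0.102% without Mir122. With the let-7 gene added, the chromosome 17 share was 1.15% (reads over Gm25927), the chromosome 9 share 0.0788%, the chromosome 16 to chromosome 17 ratio 1.52 and the chromosome 16 to chromosome 9 ratio 22.2. The let-7 genes added were not counted alike, since Mirlet7c-1 and Mirlet7a-2 lack multi-mapped reads and the Mirlet7e products were at no other microRNA locus searched. The ratio of the families was 14.9 without Mir125b-1 and Mir125b-2, and 5.86 with Mir351. These values follow from the change of denominator or of the genes summed. The edgeR negative binomial exact test called 0 members. With size factors of DESeq2, 3 members were called, and Mir99a lost its call (exact binomial test, adjusted p of 0.0979). With each pup alone, the share of the 6 members ran between 2.72% and 2.76%. No paired analysis was possible because there is 1 group. Depth limits Mir125b-1 above all, with 210 counts in pup 2 and 107 in pup 1. Multi-mapped reads limit both Mir125b genes, Mirlet7c-1 and Mirlet7a-2.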
